A study of Rattus norvegicus with 6 samples.

Results

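Solute carriers move small molecules across membranes, and the genes described here encode those that carry sugars, lactate and other monocarboxylates, vitamins, nucleosides, choline, fatty acids, nucleotide sugars and organic ions. They were chosen by name, as every gene symbol of the Slc2a, Slc5a, Slc10a, Slc16a, Slc19a, Slc22a, Slc23a, Slc27a, Slc28a, Slc29a, Slc33a, Slc35a, Slc37a, Slc44a, Slc45a, Slc46a and Slco subfamilies, leaving out the inositol carrier Slc5a3. Of 13355 genes measured, 97 were members, in 17 subfamilies. A further 6 symbols had no valued probe and another 6 (among them Slc16a5, Slc22a5 and Slc22a17) sat only on probes annotated with several genes; these were not analysed here.

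Expression was measured on Affymetrix rat arrays in primary oligodendrocyte progenitor cells (OPCs), the dividing glia that give rise to the myelin-forming oligodendrocytes of the brain. Pups of postnatal day 1 to 2 were the source, and the cells recovered for 2 days in a proliferation medium with the growth factors NT3 and PDGF. The 3 fibrinogen arrays held RNA of cells given fibrinogen, a clotting protein of blood plasma, for 48 h in differentiation medium; the 3 control arrays held RNA of unstimulated cells, titled with the same 48 h, whose medium is not given in the labels. No strain, sex or genotype is given, and nothing says that the 3 arrays of a group came from separate litters or cultures, so p-values measure the spread between these arrays, which may be technical.

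Glucose enters cells through the Slc2a (GLUT) carriers, and lactate and pyruvate cross the membrane through the Slc16a (MCT) carriers with the chaperones basigin and embigin. Oligodendrocytes are known to use glucose for lipid synthesis and to hand lactate to axons through MCT1 (Slc16a1), and choline taken up through Slc44a1 is a precursor of membrane and myelin phospholipids. The Slc35a carriers bring nucleotide sugars into the Golgi for glycosylation, and many Slc10a, Slc22a and Slco carriers are best known from liver and kidney, where they clear bile acids, drugs and other organic ions.

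Few of these genes passed the threshold between the fibrinogen and control arrays, and a gene that did not pass is not shown to be unchanged. Because the control medium is not given, any difference in medium cannot be told apart from that of fibrinogen. In limma, with p adjusted by Benjamini-Hochberg over all genes and a threshold of 0.05, 2 members rose (Slc29a4 and Slc27a3), 3 fell (Slc22a23, Slc2a6 and Slc22a15) and 92 did not pass. The share called was 5.15%, beside 7.16% of all genes tested. For the rises alone 2 of 97 members stood beside 4.16% of all genes, and for the falls 3 of 97 beside 3.00%. The groups did not overlap for 21 members (21.6%), 11 of them higher and 10 lower with fibrinogen, beside 27.0% of all genes. The median log2 fold change of the members was 0.02, against 0.003 for all genes, and the median size of change regardless of sign was 0.14 and 0.12. Only Slc29a4, the largest rise, kept its call under each of the 13 alternative analyses run; the fall of Slc22a23 was lost without fibrinogen 1 (adjusted p = 0.0585) and fibrinogen 3 (adjusted p = 0.0544).

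**Figure D1:**
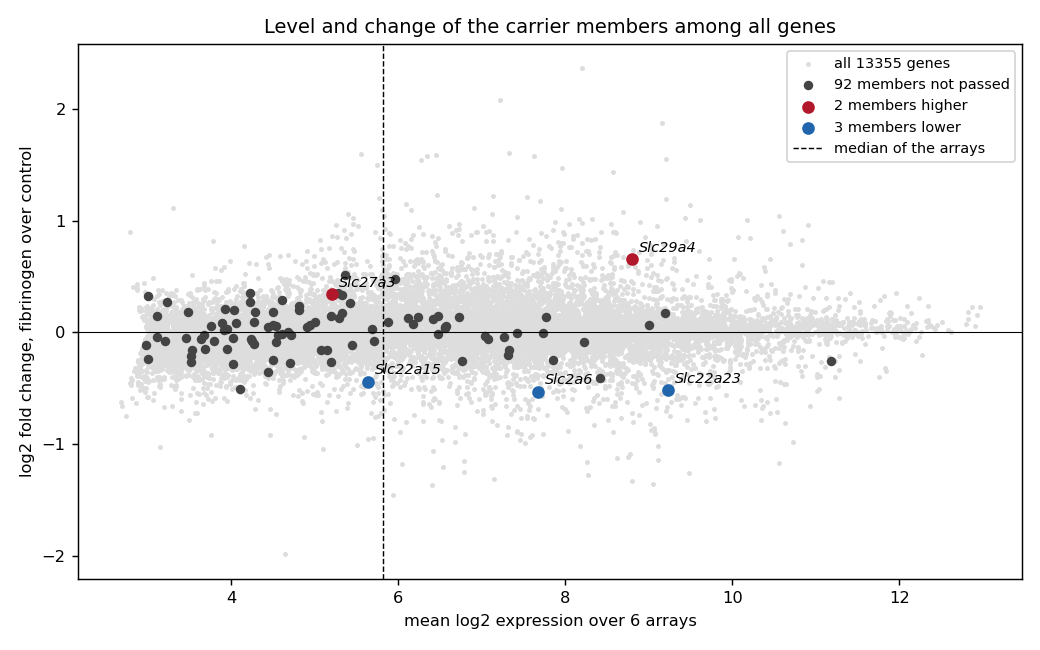
Each point is a gene, with its mean log2 expression over 6 arrays on the x axis and the log2 fold change of fibrinogen over control on the y axis; grey points are all genes, dark points the 92 members that did not pass, and red and blue points the 2 members that rose and the 3 that fell. The dashed line is the median of the arrays, and most members lie to its left and close to a change of 0.

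Most of these carriers were dim. The mean of 67 of the 97 members over the 6 arrays lay below 5.82, the median of all valued probes, and 30 lay at or above it. The files hold no detection call, so a level under the median does not show that a gene was silent, nor one above it that the gene was in use. Slc22a12, the urate carrier of the kidney, lay just above it at 5.83 ± 0.01 (SD, n = 3) in control. Of the 30 brighter members 1 rose and 2 fell; among all genes at or above the median 11.2% were called, 6.54% higher and 4.63% lower. Of the 67 dimmer members 1 rose and 1 fell, beside 1.99% of all genes below the median, 1.08% higher and 0.909% lower. For 72 members the 95% interval of the fold change lay within 1.5-fold in either direction (74.2%, beside 79.9% of all genes). For 96 it lay within 2-fold, the exception being Slc16a7.

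The starts of the 5 called genes are shown to set the upstream letters of the carriers that rose beside those of the carriers that fell. Each run is the 150 bases just before the RefSeq transcript start on the gene's own strand (build GRCr8), 5′ to 3′, and capitals mark the GC box GGGCGG or its reverse complement, the letters bound by SP-family factors.
Slc29a4, chr12:16988339-16988488, minus strand: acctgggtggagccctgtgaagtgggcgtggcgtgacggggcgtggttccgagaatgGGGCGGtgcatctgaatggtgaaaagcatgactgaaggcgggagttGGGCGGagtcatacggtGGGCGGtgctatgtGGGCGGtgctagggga
Slc27a3, chr2:178155504-178155653, minus strand: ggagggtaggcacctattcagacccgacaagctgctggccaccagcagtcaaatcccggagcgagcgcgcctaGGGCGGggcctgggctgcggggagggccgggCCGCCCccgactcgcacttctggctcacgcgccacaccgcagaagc
Slc22a23, chr17:30749295-30749444, plus strand: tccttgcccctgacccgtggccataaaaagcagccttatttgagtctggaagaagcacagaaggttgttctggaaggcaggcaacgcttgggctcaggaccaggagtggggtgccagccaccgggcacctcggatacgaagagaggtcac
Slc2a6, chr3:30753288-30753437, minus strand: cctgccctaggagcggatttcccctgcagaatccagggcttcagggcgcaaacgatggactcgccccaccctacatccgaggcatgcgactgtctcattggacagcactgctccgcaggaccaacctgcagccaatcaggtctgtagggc
Slc22a15, chr2:192047361-192047510, minus strand: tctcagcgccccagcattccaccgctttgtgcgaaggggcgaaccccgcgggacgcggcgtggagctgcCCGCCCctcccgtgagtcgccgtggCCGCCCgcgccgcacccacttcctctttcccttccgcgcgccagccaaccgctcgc
On either strand the GC box occurred 4 times before Slc29a4, 2 times before Slc27a3 and 2 times before Slc22a15, and these letters were not in the windows of Slc22a23 and Slc2a6. Both hold it 1 time within 250 bases, so the difference depends on the length of the window. Windows of the same length held it before 44.4% of the 10988 tested genes with a RefSeq promoter and before 34.5% of the 84 members with one. Since the study's title asks about BMP signaling, the GC-rich SMAD element GGCGCC and the SMAD palindrome GTCTAGAC were searched too, with the E-box CACGTG; none of these motifs stood in the 5 windows, beside 10.7%, 0.0364% and 5.06% of tested genes. The motifs did not overlap one another in these windows, and a match is a stretch of letters, not a measured site.

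Slc29a4 encodes the plasma membrane monoamine transporter, which carries serotonin, dopamine and other organic cations. Its log2 expression was 8.38, 8.60 and 8.43 in control 1, 2 and 3, and 9.14, 9.06 and 9.17 in fibrinogen 1, 2 and 3. All fibrinogen arrays lay above all control arrays, by more than the spread within either group. The rise was 1.57-fold (log2 fold change 0.65, SE 0.09, 95% interval 0.45 to 0.86, adjusted p = 0.00671), and its adjusted p with any one array left out reached 0.0392 at most.

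The other nucleoside carriers of that subfamily did not pass. Slc29a1 (ENT1, the main adenosine carrier of the plasma membrane) averaged 6.05 ± 0.03 and 6.18 ± 0.14 (SD, n = 3, control first), with a 95% interval of -0.09 to 0.34 for the log2 fold change. Slc29a2 (ENT2) was at -0.09 and Slc29a3, the lysosomal member, at -0.24 on the log2 fold change scale, with adjusted p = 0.688 and 0.235. Of the 3 sodium-coupled Slc28a nucleoside carriers, each below the array median, Slc28a2 had the smallest p; it read 3.88, 4.06 and 4.22 in control and 4.67, 4.17 and 4.37 with fibrinogen, so the groups overlapped (log2 fold change 0.35, adjusted p = 0.230).

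Among genes that handle nucleosides, 2 of 18 measured rose and none fell. This share of 11.1% stood beside 7.16% of all genes and 11.2% of those at or above the array median. Adora1, the A1 receptor for extracellular adenosine, rose 1.84-fold, from 7.38, 7.60 and 7.64 to 8.51, 8.37 and 8.38 (adjusted p = 0.00392). Entpd1 (CD39, which breaks down extracellular ATP) rose 1.71-fold (adjusted p = 0.00907). Both kept their calls without any one array, and that of Entpd1 was lost in the unmoderated test (adjusted p = 0.0604). Adk, the adenosine kinase, was at -0.03 on the log2 fold change scale (95% interval -0.23 to 0.17). Hprt1 of the same list was at -0.59 on that scale and Entpd2 at 0.44. Neither gene overlapped between the groups, and both missed the threshold (adjusted p = 0.0506 and 0.0708).

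Of the 10 glucose and hexose carriers of the Slc2a subfamily, 1 fell, none rose and 9 did not pass. The share called was 10%, beside 7.16% of all genes. The change was positive in 7 of the 10, beside 6704 of all 13355 genes (that of Slc2a5 turned negative with arrays centred on their medians). Slc2a6 (GLUT6, a hexose carrier of intracellular membranes) read 7.93, 7.93 and 7.96 in control and 7.59, 7.29 and 7.35 with fibrinogen. The control arrays were within 0.03 of one another on the log2 scale, and all fibrinogen arrays lay below them. The fall was 1.44-fold (log2 fold change -0.53, SE 0.10, adjusted p = 0.0214). It held with fibrinogen 1 removed but with no other array removed (highest adjusted p = 0.0868, without fibrinogen 3), and it did not hold in the unmoderated test (adjusted p = 0.0760).

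Slc2a1 encodes GLUT1, the widespread glucose carrier of glia and of the blood-brain barrier. It read 8.63, 8.76 and 8.46 in control and 8.22, 8.32 and 8.09 with fibrinogen, without overlap between the groups. The log2 fold change was -0.41 (SE 0.10, 95% interval -0.65 to -0.16), and it missed the threshold (adjusted p = 0.0670). It passed with arrays centred on their medians (adjusted p = 0.0481), without the dimmest 25% of genes (adjusted p = 0.0383), without genes below the array median (adjusted p = 0.0212) and with an intensity trend in the variance (adjusted p = 0.00709). Each of these alternatives left the change itself negative. Slc2a1 did not pass with any array left out (adjusted p from 0.0712 to 0.195) or in the unmoderated test (adjusted p = 0.163). Nor did it pass with the mean of all probes (adjusted p = 0.0668) or with the array number as a replicate block (adjusted p = 0.0792).

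The remaining Slc2a carriers did not pass. Slc2a12 (GLUT12) was dim and did not overlap between the groups, at 5.19, 5.36 and 4.93 in control and 5.40, 5.54 and 5.55 with fibrinogen (log2 fold change 0.34, adjusted p = 0.160). Slc2a8 and Slc2a10 were at 0.12 and 0.26 on that scale with overlapping groups, and Slc2a4, the insulin-responsive GLUT4 of muscle and fat, and Slc2a2, the GLUT2 of liver, were both at or under 4.35 on every array. Slc2a3 (GLUT3, the neuronal glucose carrier) was dim, at 4.09 ± 0.24 and 4.37 ± 0.07 (SD, n = 3; log2 fold change 0.28, adjusted p = 0.272). Slc2a5, the fructose carrier that marks microglia in brain, was at 3.91 ± 0.10 and 3.93 ± 0.31 (SD, n = 3). Slc2a13, a proton-coupled myo-inositol carrier, read 5.59 in control 1 but 6.46 and 6.37 in control 2 and 3, against 6.28, 6.23 and 6.14 with fibrinogen. Its log2 fold change of 0.08 turned to -0.20 without control 1 (adjusted p = 0.891 and 0.273). Control 1 was also the low array for Slc10a4, a vesicular orphan carrier chosen here after its values were seen, at 4.37 against 5.70 and 5.65 in the other controls and 5.36 to 5.45 with fibrinogen.

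Genes that break down the imported glucose went both ways: of 17 glycolysis genes measured, 3 rose, 2 fell and 12 did not pass, with a median log2 fold change of -0.01. The list thus had 29.4% called, beside 7.16% of all genes and 11.2% of those at or above the array median. Eno2 (the neuronal enolase) fell 1.58-fold, from 7.72, 7.80 and 7.74 to 7.02, 7.11 and 7.16 (adjusted p = 0.00460), whereas Eno1, the widespread enolase, rose 1.26-fold (adjusted p = 0.0385). Pfkfb4, which sets the level of a glycolysis activator, fell 1.57-fold (adjusted p = 0.00683), whereas Pfkfb3, an enzyme of the same kind, rose 1.27-fold (adjusted p = 0.0392), and Pfkm (a phosphofructokinase) rose 1.53-fold (adjusted p = 0.0103). The other phosphofructokinase genes Pfkl and Pfkp were at -0.41 (without overlap) and 0.02 on the log2 fold change scale. Neither passed (adjusted p = 0.0691 and 0.915). Hk2 (hexokinase 2) was at -0.24 on the log2 fold change scale and did not pass (adjusted p = 0.174). The calls of Eno1 and Pfkfb3 did not hold with any array removed (highest adjusted p = 0.129, without fibrinogen 1, and 0.136, without fibrinogen 2) or with centred arrays (adjusted p = 0.0556 and 0.0566), and that of Pfkm did not hold without fibrinogen 1 (adjusted p = 0.0526).

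No other sugar carrier passed. Of the 11 Slc5a members 0 passed in limma (0 at an unadjusted p under 0.05), and their log2 fold changes ran from -0.21 to 0.18. This sodium-coupled subfamily holds the intestinal and renal glucose carriers Slc5a1 and Slc5a2, the multivitamin carrier Slc5a6 and the lactate carrier Slc5a12, and 10 of the 11 were below the array median. Slc5a12 had the smallest p, averaging 3.04 ± 0.05 and 3.18 ± 0.06 (SD, n = 3; adjusted p = 0.342). Slc5a4 and Slc5a4b are close relatives that may share signal on an array, and their values are uncertain for that reason. In the Slc45a subfamily, Slc45a3, a carrier known from oligodendrocytes, was at 4.51 ± 0.32 and 4.57 ± 0.08 (SD, n = 3; 95% interval of the log2 fold change -0.31 to 0.43), and Slc45a2, known from melanocytes, at 3.67 ± 0.23 and 3.61 ± 0.22 (SD, n = 3). Slc37a4, which brings glucose 6-phosphate into the endoplasmic reticulum, was at 7.10 ± 0.12 and 7.05 ± 0.03 (SD, n = 3), with an interval of -0.26 to 0.14. Slc37a1, its dimmer relative, was at -0.16 on the log2 fold change scale (adjusted p = 0.571).

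**Figure D2:**
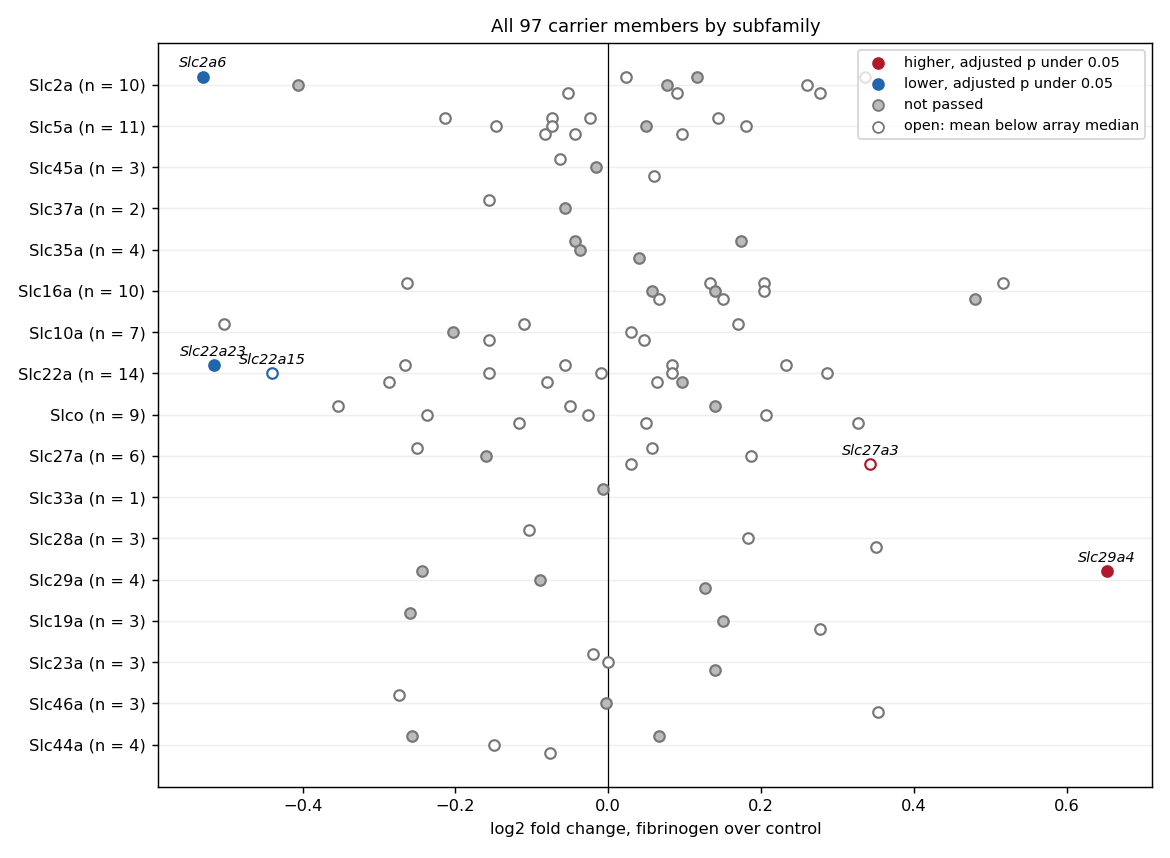
Each point is 1 of the 97 members, placed by its log2 fold change of fibrinogen over control on the x axis and by subfamily on the y axis; red and blue mark members that rose or fell at an adjusted p under 0.05, grey those that did not pass, and open points a mean below the array median. The called members lie in 4 subfamilies (Slc2a, Slc22a, Slc27a and Slc29a), and every change lies between -0.53 and 0.65.

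The Slc16a subfamily holds carriers of monocarboxylates, thyroid hormone and aromatic amino acids, and orphans. Of its 10 measured members 0 passed in limma (1 at an unadjusted p under 0.05). In 9 of the 10 the change was positive, beside 6704 of all 13355 genes. The median log2 fold change was 0.15, and 7 of the 10 genes were below the array median. Slc16a1 (MCT1, the lactate carrier of oligodendrocytes) read 6.42, 6.66 and 6.56 in control and 6.62, 6.48 and 6.71 with fibrinogen. The groups overlapped, and the interval of the log2 fold change, -0.17 to 0.29, lay within 1.5-fold either way. Slc16a3 (MCT4, which exports lactate from glycolytic cells) was at 5.33 ± 0.34 and 5.06 ± 0.25 (SD, n = 3; adjusted p = 0.508).

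Slc16a7 (MCT2, a high-affinity lactate and pyruvate carrier) had the largest change of a member that did not pass. It read 4.84, 5.39 and 5.10 in control and 5.78, 5.16 and 5.94 with fibrinogen. Fibrinogen 2 lay among the control values, and the interval of the log2 fold change was wide (0.52, 95% interval -0.01 to 1.04, adjusted p = 0.244). Slc16a14, an orphan member, read 5.57, 6.02 and 5.57 in control and 6.30, 6.15 and 6.15 with fibrinogen. The groups did not overlap, with control 2 the highest of the controls (log2 fold change 0.48, adjusted p = 0.0863). Slc16a13, a further orphan, did not overlap either (6.63, 6.66 and 6.67 against 6.76, 6.75 and 6.87; log2 fold change 0.14, adjusted p = 0.337). For Slc16a14, without control 2, the change was 0.63 with an adjusted p of 0.0196, and it also passed without genes below the array median (adjusted p = 0.0325) and with an intensity trend (adjusted p = 0.0404). It passed with no other array left out (highest adjusted p = 0.241, without fibrinogen 1). Nor did it pass with centred arrays (adjusted p = 0.107), without the dimmest 25% of genes (adjusted p = 0.0538) or with the mean of all probes (adjusted p = 0.0861). The replicate block and the unmoderated test did not call it either (adjusted p = 0.152 and 0.224).

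Around these carriers, 1 of 18 lactate, pyruvate and ketone body genes rose and 2 fell. Called were thus 16.7%, beside 7.16% of all genes and 11.2% of those at or above the array median. Ldhb, the lactate dehydrogenase subunit of oxidative tissue, rose 1.33-fold, from 9.45, 9.60 and 9.59 to 9.88, 9.97 and 10.01 (adjusted p = 0.0292), while Ldha, the glycolytic subunit, was at 0.01 on the log2 fold change scale (95% interval -0.14 to 0.17). The chaperones were at -0.02 for Bsg (basigin; 95% interval -0.18 to 0.14) and 0.13 for Emb (embigin; 95% interval -0.04 to 0.30). Acss2, which makes cytosolic acetyl-CoA from acetate, fell 2.39-fold (adjusted p = 0.00141), and Bdh1, a ketone body enzyme, fell 1.33-fold (adjusted p = 0.0477). Neither Ldhb nor Bdh1 kept its call with any array removed (highest adjusted p = 0.107, without fibrinogen 3, and 0.152, without fibrinogen 2).

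Slc33a1, the only member of its subfamily, brings acetyl-CoA into the endoplasmic reticulum. It read 7.73, 7.77 and 7.71 in control and 7.68, 7.82 and 7.69 with fibrinogen, so the groups overlapped throughout. The log2 fold change was -0.01, with an interval from -0.18 to 0.17.

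None of the 4 choline carriers of the Slc44a subfamily passed in limma (1 at an unadjusted p under 0.05). Slc44a1 (the choline carrier CTL1) read 11.29, 11.35 and 11.30 in control and 11.08, 11.06 and 11.03 with fibrinogen. The groups were separated by more than the spread within either, but the change was small (1.19-fold lower, log2 fold change -0.26, SE 0.07, 95% interval -0.42 to -0.10) and missed the threshold (adjusted p = 0.0737). It passed with centred arrays (adjusted p = 0.0409), without the dimmest 25% of genes (adjusted p = 0.0366), without genes below the array median (adjusted p = 0.0174), with an intensity trend (adjusted p = 0.000251) and in the unmoderated test (adjusted p = 0.0288). It did not pass with any array left out (adjusted p from 0.115 to 0.203) or with the mean of all probes (adjusted p = 0.0739). Nor did it pass with the array number as a replicate block (adjusted p = 0.19). Slc44a2, its relative, was at 0.07 on the log2 fold change scale (95% interval -0.12 to 0.25). Slc44a3 and Slc44a4 were dim and overlapped between the groups, and the high-affinity choline carrier of neurons, Slc5a7, was at or under 3.39 on every array.

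Of 15 genes that make, use or release choline phospholipids, the ethanolamine branch included, 1 rose, 4 fell and 10 did not pass. Their median log2 fold change was -0.18, and 33.3% were called, beside 7.16% of all genes and 11.2% of those at or above the array median. Pld1 (a phospholipase that frees choline) fell 1.88-fold, from 8.11, 8.33 and 8.13 to 7.14, 7.37 and 7.32 (adjusted p = 0.00392). Enpp6, a choline phosphodiesterase known from newly formed oligodendrocytes, fell 1.73-fold (adjusted p = 0.00341). Selenoi and Pcyt2, which belong to the parallel ethanolamine branch, fell 1.61-fold and 1.59-fold (adjusted p = 0.00392 and 0.00411). The rise was that of Pcyt1b, an isoform of the rate-setting enzyme of the choline branch, which read 8.35, 8.41 and 8.29 in control and 8.93, 8.65 and 8.81 with fibrinogen (1.36-fold, adjusted p = 0.0342). Its other isoform Pcyt1a was at -0.03 and Chka (choline kinase) at -0.18 on the log2 fold change scale, and neither passed (adjusted p = 0.892 and 0.453). Chkb, Chpt1 and Cept1 of the same list were at -0.32, 0.23 and -0.09 on that scale and did not pass either. The 4 falls kept their calls without any one array, and the rise of Pcyt1b held with no array removed but fibrinogen 2 (highest adjusted p = 0.113, without fibrinogen 3).

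Fatty acid transport proteins, the Slc27a subfamily, are acyl-CoA synthetases that trap fatty acids in the cell. Slc27a3 read 4.96, 5.13 and 5.02 in control and 5.34, 5.44 and 5.36 with fibrinogen, without overlap. All 6 values lay below the array median. The rise was 1.27-fold (log2 fold change 0.34, SE 0.08, adjusted p = 0.0468) and did not hold with any array removed (adjusted p from 0.0594 to 0.152, the highest without fibrinogen 2), with arrays centred on their medians (adjusted p = 0.0664), with an intensity trend (adjusted p = 0.109) or in the unmoderated test (adjusted p = 0.0731). Slc27a1 (FATP1) averaged 5.68 ± 0.23 and 5.71 ± 0.03 (SD, n = 3), and Slc27a4 was at -0.16 on the log2 fold change scale (adjusted p = 0.368). Slc27a6 had little spread and no overlap, with 4.61, 4.72 and 4.56 in control against 4.37, 4.39 and 4.38 with fibrinogen, and missed the threshold (log2 fold change -0.25, adjusted p = 0.105). Slc27a2 and Slc27a5, known from liver, overlapped between the groups.

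The long-chain acyl-CoA synthetases outside the Slc families included larger falls. Of 14 fatty acid activation genes measured, 1 rose, 4 fell and 9 did not pass, and their median log2 fold change was 0.05. Called were 35.7%, beside 7.16% of all genes and 11.2% of those at or above the array median. Acsl3 fell 1.98-fold, from 11.17, 11.28 and 11.21 to 10.25, 10.34 and 10.12 (adjusted p = 0.00187). Acsl4 fell 1.59-fold and Acsl1 1.47-fold (adjusted p = 0.00411 and 0.0203), and Cpt1a, which commits fatty acids to mitochondrial oxidation, rose 1.52-fold (adjusted p = 0.0156). The mean of Cpt1a over all arrays lay below the array median. The calls of Acsl3 and Acsl4 were kept without any one array. That of Acsl1 held with no array removed but fibrinogen 3 (highest adjusted p = 0.0747, without fibrinogen 2) and that of Cpt1a did not hold without fibrinogen 2 or 3 (highest adjusted p = 0.0619). Acsl5 fell 1.28-fold (adjusted p = 0.0307), a call that did not hold with any array removed (highest adjusted p = 0.108, without fibrinogen 2). Acsl6, Acsbg1 and Acsbg2 were at 0.14, 0.04 and -0.06 on the log2 fold change scale and did not pass.

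Among the 14 organic cation and anion carriers of the Slc22a subfamily, 2 fell, none rose and 12 did not pass. The share called was 14.3%, beside 7.16% of all genes called and 3.00% called lower. Below the array median lay 12 of the 14, a range in which 1.99% of all genes were called. Slc22a23, an orphan carrier, read 9.39, 9.58 and 9.49 in control and 8.94, 9.02 and 8.95 with fibrinogen. The highest fibrinogen array lay 0.37 below the lowest control on the log2 scale. The fall was 1.43-fold (log2 fold change -0.52, SE 0.08, 95% interval -0.70 to -0.33, adjusted p = 0.0120). Slc22a15, a carrier of zwitterions, read 5.81, 6.02 and 5.74 in control and 5.39, 5.32 and 5.54 with fibrinogen. It fell 1.36-fold without overlap (log2 fold change -0.44, SE 0.10, adjusted p = 0.0490), a call that did not hold with any array removed (adjusted p from 0.0785 to 0.154, the highest without fibrinogen 2) or in the unmoderated test (adjusted p = 0.135). The other 12 include the renal carriers Slc22a2, Slc22a6 and Slc22a8, and their log2 fold changes ran from -0.29 to 0.29. Slc22a3 (OCT3, a carrier of organic cations and monoamines, as Slc29a4 is) averaged 4.70 ± 0.16 and 4.93 ± 0.06 (SD, n = 3), with the lowest fibrinogen array at 4.88 and the highest control at 4.87 (log2 fold change 0.23, 95% interval 0.003 to 0.46, adjusted p = 0.232). Slc22a2 (OCT2, the renal cation carrier) was at -0.29 on that scale, also without overlap (adjusted p = 0.232). Slc22a21 is a close relative of Slc22a4 and Slc22a5, with which it may share signal, and its value is uncertain.

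**Figure D3:**
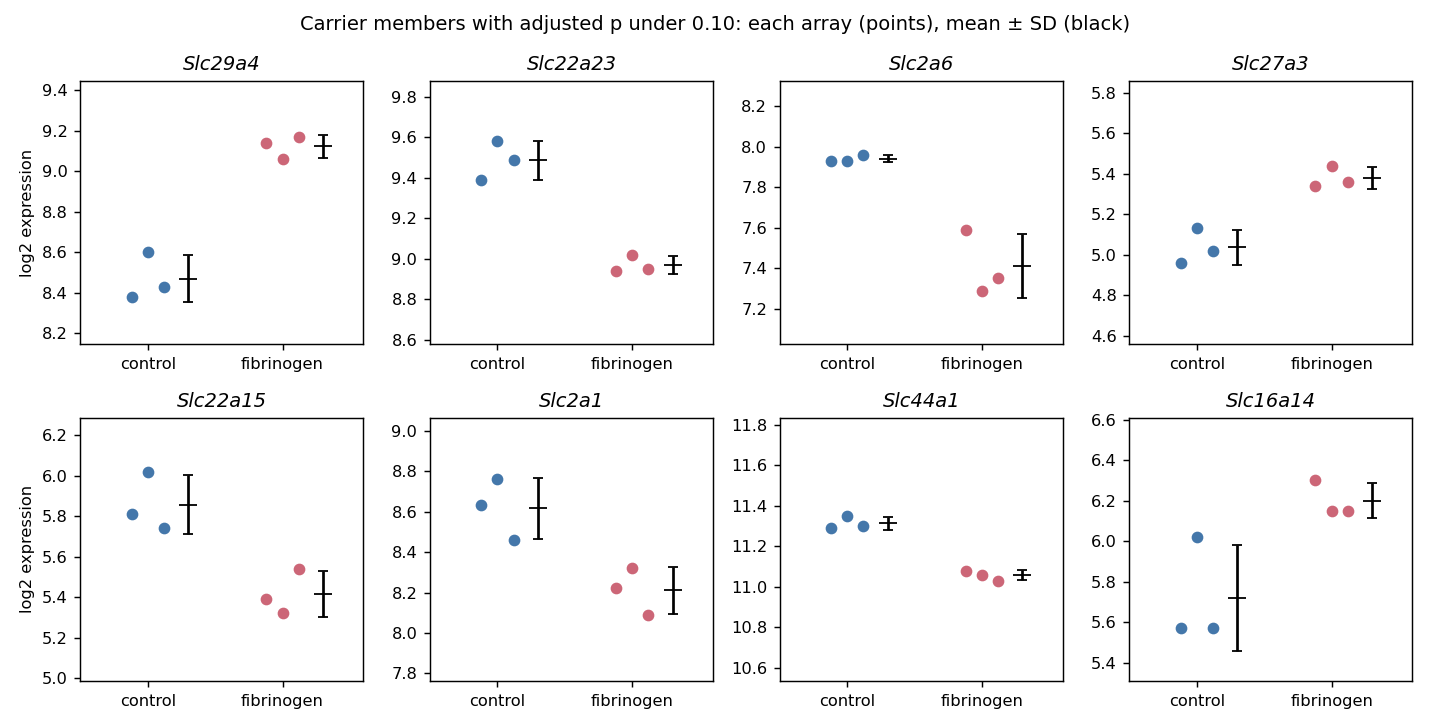
Log2 expression of the 8 members with an adjusted p under 0.10, 1 panel per gene, with the 3 control arrays in blue, the 3 fibrinogen arrays in red and the mean ± SD of each group in black; each y axis spans the same range of log2 units. The groups are separated in every panel, which the choice by p from these same arrays favours, and the gap is widest for Slc29a4 (8.60 against 9.06).

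The organic anion transporting polypeptides (Slco) and the bile acid carrier family (Slc10a) held no called member. In limma 0 of 9 Slco genes passed (2 at an unadjusted p under 0.05) and 0 of 7 Slc10a genes (1 at an unadjusted p under 0.05). Of the Slco genes 8 were below the array median, and the log2 fold changes ran from -0.35 to 0.33. Slco5a1, an orphan, had the smallest p: it read 4.49, 4.77 and 4.61 in control and 4.24, 4.12 and 4.45 with fibrinogen, without overlap (log2 fold change -0.35, adjusted p = 0.129). Slco1c1, which carries thyroxine at the blood-brain barrier and in astrocytes, was at 3.69 ± 0.15 and 3.66 ± 0.19 (SD, n = 3). Slco3a1, the only Slco gene above the array median, read 6.12, 6.15 and 6.24 in control and 6.34, 6.28 and 6.31 with fibrinogen (log2 fold change 0.14, adjusted p = 0.337). Slco2a1, a prostaglandin carrier, was dim at 3.83 ± 0.07 and 4.04 ± 0.09 (SD, n = 3), and neither it nor Slco3a1 overlapped between the groups. Among the 7 Slc10a genes Slc10a5 moved most, from 4.66, 4.07 and 4.34 to 4.12, 3.74 and 3.70; its groups overlapped (log2 fold change -0.50, adjusted p = 0.150). Slc10a7, the only brighter member of that family, was at -0.20 on its brightest probe (7.20, 7.56 and 7.49 against 7.30, 7.24 and 7.10, with overlap), and its other probe gave 7.42, 7.50 and 7.39 against 7.08, 7.07 and 7.22 without overlap. The liver carriers Slc10a1 and Slco1b2 stood at or under 4.14 on every array.

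Genes that use thyroid hormone, one of the cargoes of Slco1c1 and of some Slc16a carriers, changed in both directions. With 1 of 12 higher and 2 lower, 25% were called, beside 7.16% of all genes and 11.2% of those at or above the array median. The receptor genes Thrb and Thra fell 1.32-fold and 1.30-fold (adjusted p = 0.0228 and 0.0371), and Klf9, a transcription factor induced by the hormone, rose 1.29-fold (adjusted p = 0.0490). None of these calls held with any array removed, with the highest adjusted p at 0.0914 for Thrb (without fibrinogen 2) and at 0.126 for Thra and 0.159 for Klf9 (both without fibrinogen 1); that of Klf9 also failed with centred arrays (adjusted p = 0.0704).

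Of the 9 vitamin and heme carriers of the Slc19a, Slc23a and Slc46a subfamilies 0 passed in limma (0 at an unadjusted p under 0.05). Slc19a1, the reduced folate carrier, read 7.00, 6.73 and 6.95 in control and 6.81, 6.45 and 6.64 with fibrinogen, with overlap (log2 fold change -0.26, adjusted p = 0.272). Slc19a2, a thiamine carrier, was at 6.40 ± 0.06 and 6.55 ± 0.08 (SD, n = 3; adjusted p = 0.341). Slc23a2 (SVCT2, the ascorbate carrier of brain cells) was at 7.70 ± 0.10 and 7.84 ± 0.06 (SD, n = 3), an interval of -0.05 to 0.33. Slc46a1, the proton-coupled folate carrier, stood at 7.42 in both groups (interval of the log2 fold change -0.22 to 0.22), and Slc46a3, a lysosomal relative, was at 0.35 on that scale (adjusted p = 0.280). Of 14 genes that use these vitamins, Tyms (thymidylate synthase) rose 1.30-fold and Tkt (transketolase, a thiamine enzyme) fell 1.25-fold (adjusted p = 0.0265 and 0.0434). These made up 14.3% of the list, beside 7.16% of all genes and 11.2% of those at or above the array median. Neither call held with any array removed (highest adjusted p = 0.0969, without fibrinogen 2, for Tyms and 0.143, without fibrinogen 3, for Tkt).

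The 4 nucleotide-sugar carriers of the Slc35a subfamily were all at or above the array median, and 0 of 4 passed in limma (0 at an unadjusted p under 0.05). Slc35a1 (CMP-sialic acid) was at 6.54 ± 0.13 and 6.58 ± 0.13, and Slc35a2 (UDP-galactose) at 7.29 ± 0.07 and 7.24 ± 0.06 (SD, n = 3). Their log2 fold changes had intervals of -0.20 to 0.28 and -0.23 to 0.14. Slc35a4 had the smallest p of the subfamily and did not overlap between the groups, at 9.03, 9.20 and 9.09 in control and 9.32, 9.29 and 9.23 with fibrinogen (log2 fold change 0.17, adjusted p = 0.266). Its other probe overlapped, at 6.84, 6.83 and 7.19 against 6.87, 7.19 and 7.15. Of the enzymes that make nucleotide sugars and sialic acid, 0 of 20 measured passed in limma (4 at an unadjusted p under 0.05), and their log2 fold changes ran from -0.26 to 0.35. Outside the Slc35a subfamily 1 of 15 related carriers rose (6.67% called, beside 7.16% of all genes and 11.2% of those at or above the array median). Slc35d3, known from platelet granules and neurons, read 5.32, 5.27 and 5.51 in control and 6.49, 6.02 and 6.12 with fibrinogen, a rise of 1.79-fold (adjusted p = 0.0142) that was kept without any one array and lost in the unmoderated test (adjusted p = 0.0896). The mean of Slc35d3 over the 6 arrays lay below the array median.

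**Figure D4:**
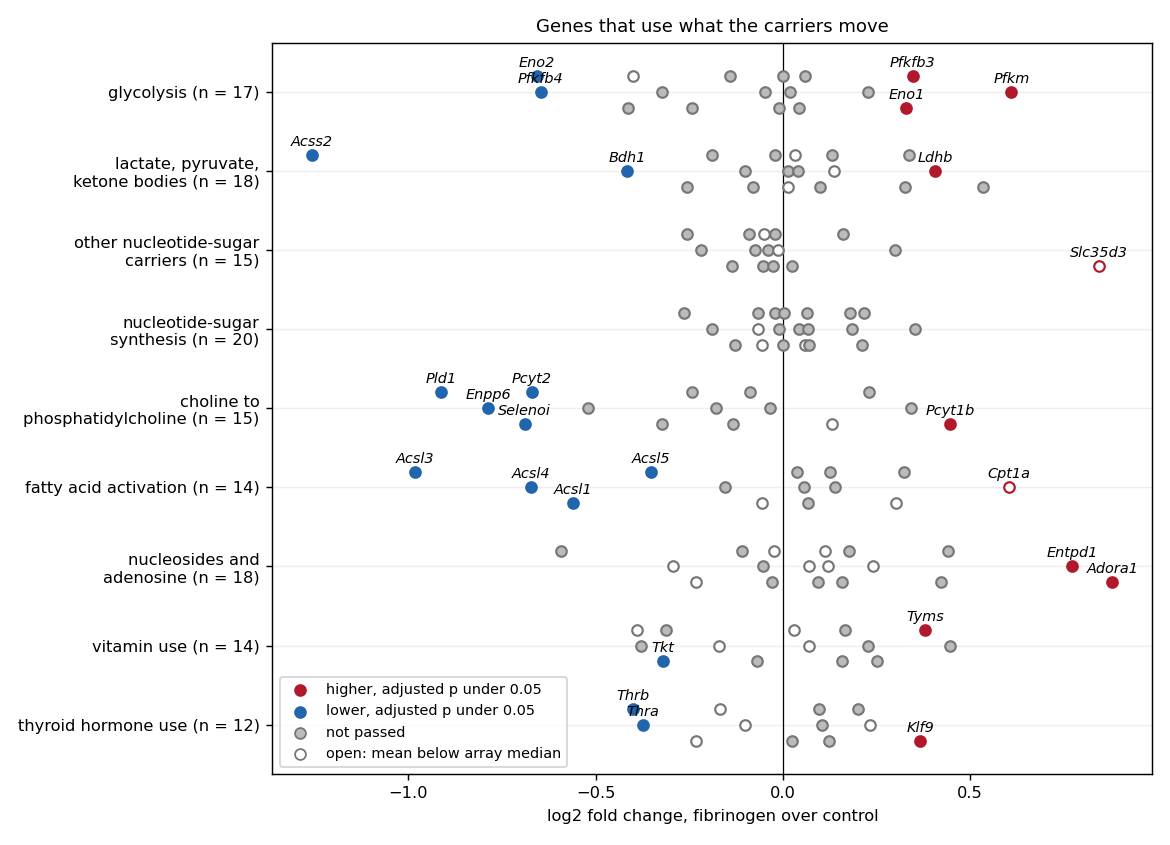
Each point is a gene of 1 of 9 lists that use or prepare what the carriers move, placed by its log2 fold change of fibrinogen over control; colours and open points are as in the plot of the subfamilies. The nucleotide-sugar synthesis genes hold no called member, and 8 of the 15 falls lie in the choline and fatty acid lists, with Acss2 the lowest point at -1.26. The choline list includes Selenoi and Pcyt2 of the ethanolamine branch among its falls.

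Over the 9 lists, 26 of 143 measured genes passed (11 higher and 15 lower, 18.2%, beside 7.16% of all genes and 11.2% of genes at or above the array median). The unmoderated test ended the calls of Ldhb, Bdh1, Acsl1, Cpt1a, Thra, Klf9, Pcyt1b and Pfkfb3 too (adjusted p from 0.0515 to 0.121). These lists were picked by role and are bright on the arrays, so their share is a description. Several members are also known from cell types other than OPCs. Of the OPC markers 8 of 8 measured lay at or above the array median, and their mean level was 9.90 to 9.98 in control and 10.24 to 10.27 with fibrinogen, with 4 rising. Astrocyte markers rose in 5 of 10 and had mean levels of 7.79 to 7.81 and 8.12 to 8.13. The astrocyte markers Aqp4, Gjb6, Gja1, S100b and Aldoc did not pass, at -0.24, -0.23, -0.10, -0.09 and 0.04 on the log2 fold change scale. Myelin markers fell in 6 of 11 and rose in 1 (8.44 to 8.47 and 8.16 to 8.22). These calls made up 50% of the OPC, 50% of the astrocyte and 63.6% of the myelin markers. Beside them stood 7.16% of all genes and 11.2% of those at or above the array median. All 9 endothelial markers were below the array median (mean level 3.93 to 4.17 and 3.94 to 4.06), and 0 passed in limma (0 at an unadjusted p under 0.05). So were 9 of 10 pericyte and fibroblast markers (4.38 to 4.56 and 4.33 to 4.45), 7 of 8 of choroid plexus (5.14 to 5.35 and 5.06 to 5.21) and 14 of 15 of microglia (4.67 to 4.82 and 4.51 to 4.58). Among those 3 lists Enpp2 of the choroid plexus list, which oligodendrocytes also express, and the microglial genes Itgam and Cd53 fell. Neuron markers gave 6.67 to 6.80 and 6.57 to 6.61, with 1 of 13 higher and 1 lower. The share called was 15.4% for neuron, 13.3% for microglial and 12.5% for choroid plexus markers. The part of these shifts in the carrier values was not tested, and in RNA from whole cultures fewer cells of a type and less RNA per cell cannot be told apart.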

How the data were processed

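The values are the log2 expression values the authors deposited for each probe set and array. RMA, which normalizes arrays by quantiles, and limma appear without versions among the submitters' processing notes; further steps, and the genome build, are not given in the sources used here. Values stand in 23631 of 26312 rows. Array medians were 5.78, 5.80 and 5.80 in control 1, 2 and 3 and 5.84 in each fibrinogen array. Every fibrinogen array thus had a higher median than every control array. The number of arrays limits the precision.

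Probes with 1 gene symbol were kept (14083), and the brightest probe stood for its gene. The groups were compared with limma 3.58.1 in R 4.3.3 (moderated, two-sided, without filter or covariate). Simulated arrays were drawn from the fitted model itself, so they checked the code and not the model's assumptions. All adjusted p-values are limma's, by Benjamini-Hochberg over 13355 genes. Errors are SD over 3 arrays or moderated standard errors. Alternatives were a replicate block, median-centred arrays, 2 filters on dim genes, the mean of probes, an intensity trend, an unmoderated test, a threshold of 0.10 and each array left out.

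Members, the 9 lists of related genes and the 8 marker lists were chosen with earlier results of these data known. Called members, 20 measured members set by role, the smallest p of each subfamily without a call, the 3 largest changes that did not pass and up to 4 called genes per list were named by rule, and all other genes after their values were seen. Promoters are RefSeq's (GRCr8); 84 of 97 members matched by gene number.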

Additional observations from a re-analysis of the deposited data

How the results depend on the processing

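The 2 rises and 3 falls among the carriers depended on the processing. With array medians removed, 1 member was higher and 5 lower, and the unmoderated test gave 1 higher and 2 lower (Slc22a23 and Slc44a1). Without the dimmest 25% of genes, with an intensity trend and at an adjusted p of 0.10, 5 were lower. Leaving out each array in turn gave 1 to 2 higher and 0 to 1 lower. The 956 genes called became 1502 without genes below the array median, 1639 with the trend, 500 unmoderated, 1479 at 0.10, and 358 to 592 with an array left out. Centring kept the total near 950 but turned 555 higher and 401 lower into 434 and 516. It moved the median change of the members to -0.023 and of all genes to -0.043; leaving out arrays gave -0.0067 to 0.045 for the members. The 26 calls in the 9 related lists became 46 without genes below the median, 46 with the trend, 17 unmoderated and 13 to 16 with an array left out.

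Array numbers 1 to 3 occur in both groups, but same-numbered arrays did not deviate together (correlations of 0.0202, -0.135 and -0.0740), so the numbers were not taken to pair them. With the number as a replicate block, 1 member was higher and 0 lower, 343 genes were called (956 without it) and 11 of the list genes. The block ended the calls of Slc22a23 (adjusted p = 0.0501), Slc2a6 (0.0689), Slc27a3 (0.109) and Slc22a15 (0.139).

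Over 34 named members and 13 alternatives, 356 of 417 values kept direction and side of the threshold, 28 lost it, 12 passed it and 21 changed sign, each of a change near 0. Centred, the log2 fold change was -0.017 for Slc27a1, -0.023 for Slc2a5 and -0.0067 for Slc35a1. With an array left out it ranged from -0.0067 to 0.12 for Slc16a1, -0.10 to 0.10 for Slc27a1, -0.20 to 0.24 for Slc2a13, -0.13 to 0.18 for Slc2a5, -0.052 to 0.018 for Slc33a1, -0.035 to 0.095 for Slc35a1, -0.098 to 0.012 for Slc37a4, -0.19 to 0.062 for Slc45a2, -0.12 to 0.21 for Slc45a3, -0.05 to 0.08 for Slc46a1 and -0.10 to 0.08 for Slco1c1. The cause was not tested. A filter drops dim members (Slc27a3 and Slc22a15 below the median), and changes of dim probes are the least certain.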
